A study of Mus musculus with 106 samples.

Results

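The 6 genes described here switch thyroid hormone on or off, carry it across membranes or act as its receptors: *Dio1*, *Dio2*, *Dio3*, *Thra*, *Thrb* and *Slc16a10*. They were taken by symbol from the 4 deposited tables of gene counts, which together list 25873 genes, and all 6 were found in every table. The tables hold bulk RNA sequencing of 106 mouse libraries in 31 groups, and every group at 10 °C or 34 °C was compared with the 22 °C libraries of the same tissue in 16 comparisons. All mice were wild type C57BL/6J males with no further allele or agent. Outside quadriceps, what the groups of a comparison differed in was the housing temperature. For the cold groups, mice labelled 11 weeks old (12 weeks for quadriceps) had spent 2 weeks at 10 °C after a stepwise cooling, and for the warm groups mice labelled 12 weeks old had spent 4 weeks at 34 °C. The cold mice and their controls came from another breeder than the warm mice and theirs. Each quadriceps comparison used the 22 °C libraries of both sets, as grouped by column name. Part of its controls thus belonged to the other experiment and breeder, and may differ in library kit. The labels' free text on treatment gives 34 °C for 4 weeks for every sample, cold and control samples included, so temperature was read from the titles and the treatment codes. Most libraries pooled the tissue of a pair of mice, so that 3 libraries stand for a group, whereas spinal cord (5 a group) and bone marrow (6 a group) were taken from single mice, and the sources differ on warm iBAT.

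The thyroid secretes mainly the prohormone thyroxine (T4), and tissues set their own supply of the active hormone triiodothyronine (T3). The deiodinase enzymes, which carry the rare amino acid selenocysteine, do this: DIO2 makes T3 inside the cell, DIO1 in liver and kidney makes T3 for the circulation and clears inactive forms, and DIO3 inactivates both T4 and T3. SLC16A10 moves T3, T4 and aromatic amino acids through the cell membrane, and the nuclear receptors THRA and THRB bind T3 and switch target genes. In brown fat, noradrenaline induces *Dio2* through cyclic AMP, and the T3 made there is needed for a full heat response.

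The deposited values were raw read counts, and depth ranged from 4262403 to 62880248 counts per library with a median of 21585677. Levels are given as CPM, the read counts of a gene relative to the library's total, with totals scaled by the trimmed mean of M-values (TMM) over all libraries of a table. The scaling factors ran from 0.530 to 1.40 in the table of 8 cold tissues, from 0.635 to 1.59 in the table of warm tissues and quadriceps, from 0.957 to 1.03 in bone marrow and from 0.977 to 1.01 in spinal cord. The tables were scaled separately, so levels are compared only within a table. A gene was tested where its average log2 CPM in a comparison was above 0, with edgeR's quasi-likelihood test, and a change was called where the p-value, adjusted over all genes tested by the Benjamini-Hochberg method, was under 0.05. Of the 96 pairs of gene and comparison, 67 passed this filter and 29 did not. The latter were *Dio1* in 10 of 16 comparisons, *Dio2* in 5 and *Dio3* in 14.

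The control libraries first had to be read against cell type markers, because some carried other tissues. A 22 °C brain library held 46314 CPM of 5 summed hepatocyte markers, against 1.89 to 8.98 CPM in the 5 other brain libraries, and 2027 CPM of 5 neuron markers against 3642 to 4173. pgVAT (perigonadal visceral adipose tissue) libraries held epididymis markers at 13125, 2.28 and 15940 CPM at 10 °C and at 2463, 761 and 468 CPM at 22 °C, and a 22 °C pgVAT library and a 22 °C liver library held brown adipocyte markers at 407 and 250 CPM. The 3 libraries of iBAT (interscapular brown adipose tissue) at 22 °C in the cold experiment held 46.6 to 88.2 CPM of hepatocyte markers, against at most 0.960 at 10 °C. In bulk tissue, a lower share of a cell type and less RNA per cell cannot be told apart.

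The promoter of *Dio2* is shown because cold acts on brown fat through noradrenaline and cyclic AMP, and it holds the palindromic cyclic AMP response element, the letters bound by CREB. RefSeq promoters, 250 bases before and 50 after the start, matched 5 of the 6 genes with 6 entries (2 for *Thrb*). The *Dio2* entry lies at chr12:90738989-90739288 on the minus strand of GRCm38.p6, written 5′ to 3′ with the element in capitals.
Dio2 promoter: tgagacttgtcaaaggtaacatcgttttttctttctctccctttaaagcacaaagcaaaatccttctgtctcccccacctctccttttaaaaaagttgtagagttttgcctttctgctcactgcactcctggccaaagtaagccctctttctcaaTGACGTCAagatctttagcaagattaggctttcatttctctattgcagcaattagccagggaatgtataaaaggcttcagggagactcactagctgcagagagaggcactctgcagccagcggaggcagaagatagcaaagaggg
The element starts at -95 relative to the RefSeq transcription start. The whole window lies upstream of the GENCODE span of *Dio2* (chr12:90724552-90738438), so the start differs between these annotations. TGACGTCA was present in 588 of 32851 promoters of the same length, or 1.79%. None of the other 5 entries held it. AGGTCA, the core motif of nuclear receptors, was searched on both strands (TGACCT on the other) and was present in 5340 promoters, or 16.3%. Among the 6 entries it occurred once, in the first *Thrb* promoter (chr14:17660710-17661009, plus strand) at -184. Its direct repeat spaced by 4 bases (DR4), of which each copy also counts as the single motif, occurred in 5 promoters (0.0152%) and in none of the 6 entries. A match describes the letters of the window and no binding was measured.

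The activating deiodinases were each concentrated in few tissues at 22 °C. *Dio1* (chr4:107291465-107307169, minus strand, GENCODE on GRCm38, the assembly mm10) reached 493 ± 52.6 CPM (SD, n = 3) in liver of the cold experiment and 61.6 ± 21.2 in ileum, and the libraries of these tissues did not overlap. In brain it was 0.0651 and 0.0478 CPM in a pair of libraries and 116 CPM in the library with hepatocyte markers, and everywhere else the group mean was under 1 CPM. *Dio2* (chr12:90724552-90738438, minus strand) was highest in iBAT at 333 ± 215 CPM, then brain at 70.2 ± 26.3 and hypothalamus at 11.8 ± 0.616, with no overlap between these 3. The brain library with hepatocyte markers held 39.9 CPM of *Dio2*, and the other brain libraries 86.9 and 83.8 CPM. pgVAT (3.1 ± 2.11), ingSAT (inguinal subcutaneous adipose tissue, 2.33 ± 1.24) and liver (2.0 ± 3.47) overlapped one another, and ileum and spleen were below 0.7 CPM in every library. In their own tables, *Dio2* was 20.1 ± 2.73 CPM in spinal cord (n = 5) and 13.7 ± 1.36 in bone marrow (n = 6).

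*Dio2* reads in liver came with brown fat markers. The 22 °C liver libraries held 0, 0 and 6.01 CPM, and those at 10 °C held 0, 1.16 and 0 CPM. The 2 libraries with reads were the ones highest in brown adipocyte markers of their group, at 250 and 59.8 CPM against 18 to 24.9 CPM in the other 4. In the warm experiment *Dio2* was at 0 in all 3 liver libraries at 22 °C.

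*Dio3*, the inactivating deiodinase (chr12:110279068-110281097, plus strand, 1 exon), was close to the detection limit in these adult tissues. Brain had the highest level, 1.23 ± 0.519 CPM in the cold and 1.11 ± 0.379 in the warm experiment at 22 °C, and the mean of every other tissue at 22 °C was at most 0.312 CPM, the value of quadriceps. In the cold experiment *Dio3* was 0.662 CPM in the brain library with hepatocyte markers and 1.37 and 1.67 CPM in the other 22 °C brain libraries. Its tested comparisons were those of brain, where the log2 fold change was 0.43 at 10 °C (SE 0.32, adjusted p = 0.707) and 0.29 at 34 °C (SE 0.26, adjusted p = 1.0).

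The receptors differed in their tissue order. *Thra* (chr11:98740638-98769006, plus strand) was highest in brain (378 ± 151 CPM) and hypothalamus (312 ± 18.1), which overlapped, followed by iBAT (136 ± 12.6), pgVAT (112 ± 25.2) and ingSAT (107 ± 1.97), of which neighbours overlapped, then ileum (60.2 ± 4.20), liver (28.8 ± 2.52) and spleen (17.9 ± 2.55). In the brain library with hepatocyte markers *Thra* was 208 CPM. In the other 22 °C brain libraries it was 431 and 495 CPM, above the 293 to 329 CPM of hypothalamus. *Thrb* (chr14:17660261-18038090, plus strand) was highest in liver (124 ± 17.9) and iBAT (101 ± 10.2), which overlapped, then brain (66.9 ± 3.25), pgVAT (54.4 ± 10.2), ingSAT (48.1 ± 1.41), hypothalamus (36 ± 1.67), ileum (35.1 ± 2.05) and spleen (5.29 ± 1.10). With library size alone in place of TMM, *Thrb* was higher in iBAT (89.7 CPM) than in liver (70.1 CPM). Per kilobase of exon, *Thra* exceeded *Thrb* in brain (81.9 against 9.03 CPM per kb), and *Thrb* exceeded *Thra* in liver (16.8 against 6.25). The counts are per gene, so the T3-binding and the non-binding *Thra* products could not be separated.

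*Slc16a10*, the transporter gene (chr10:40033532-40142258, minus strand), was highest in liver (307 ± 30.1 CPM), followed by spleen (124 ± 25), without overlap. Ileum (70.0 ± 5.64), iBAT (61.4 ± 15.6) and pgVAT (60.5 ± 8.31) overlapped, ingSAT was at 46.2 ± 5.51, and hypothalamus was lowest at 4.31 ± 0.182. Brain held 5.21 and 5.59 CPM in a pair of libraries and 87.9 CPM in the library with hepatocyte markers. In bone marrow the gene was at 295 ± 34.1 CPM, or 40.0 CPM per kb, against 2.36 for *Dio2*, 6.29 for *Thra* and 0.210 for *Thrb* in the same libraries. Spinal cord held 2.24 ± 0.507 CPM.

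**Figure D1:**
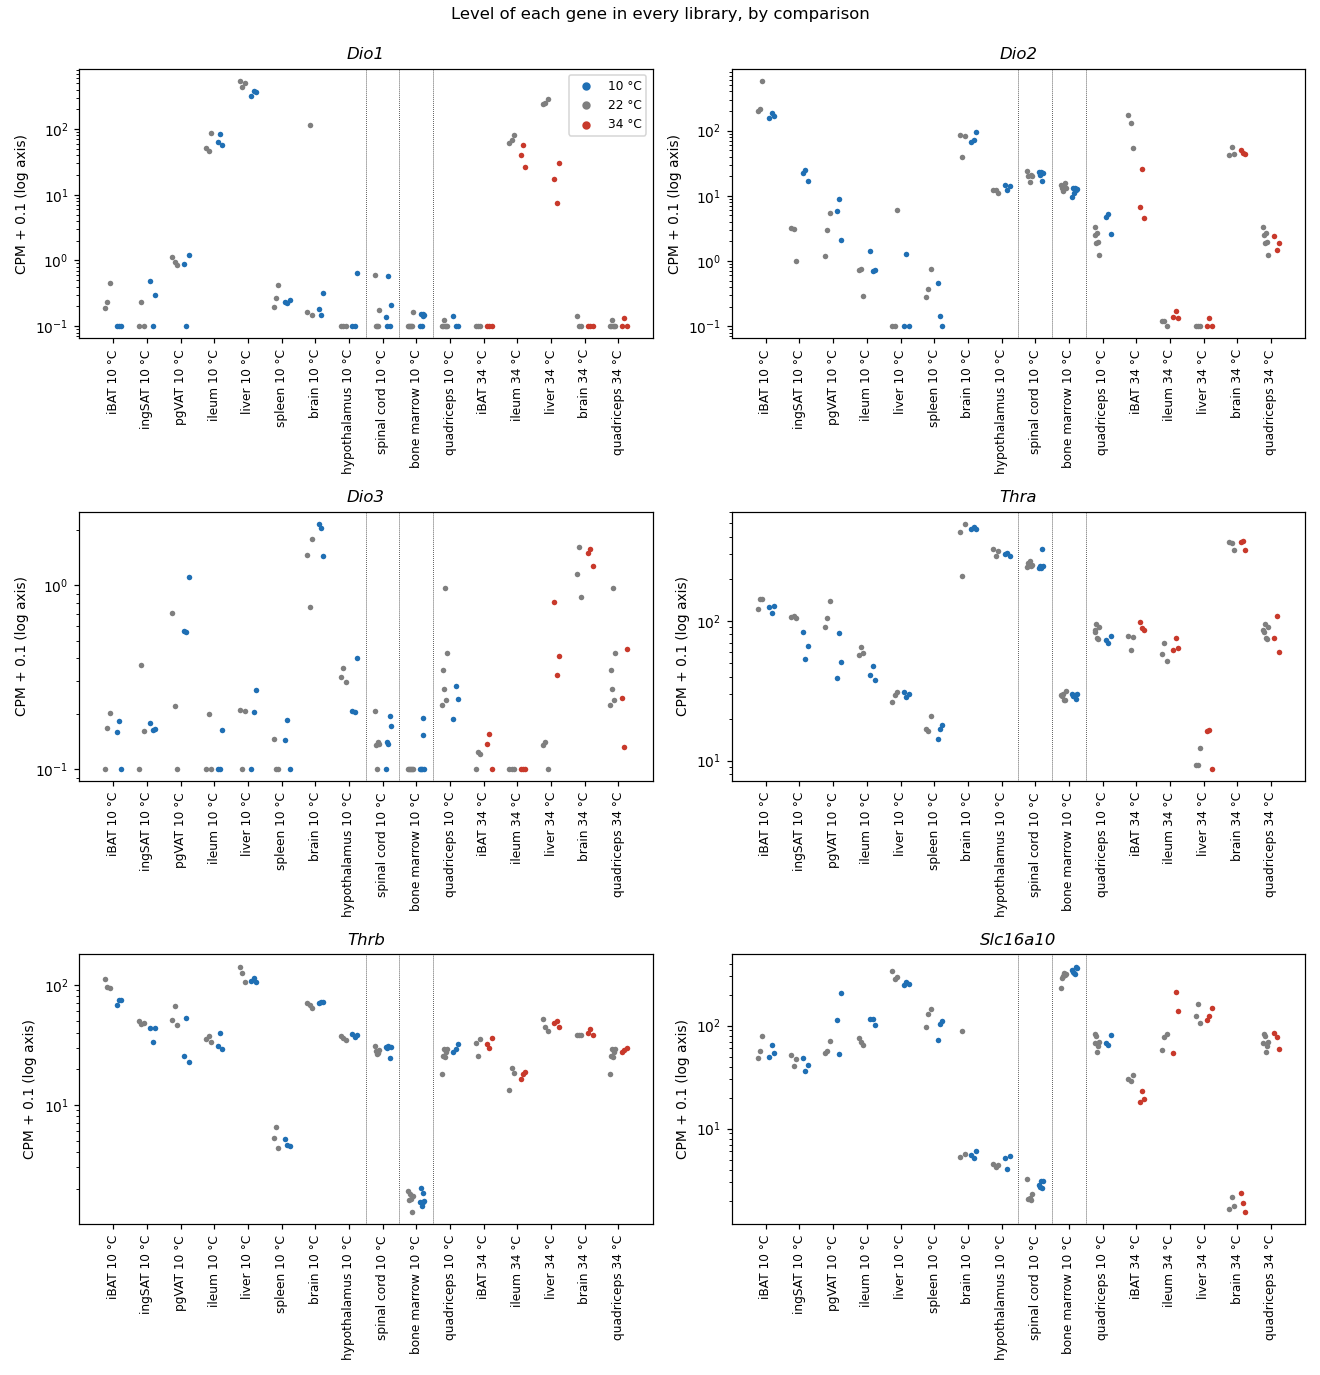
Level of each of the 6 genes (panels) in every library (points), as CPM plus 0.1 on a log axis, by comparison, with 22 °C in grey, 10 °C in blue and 34 °C in red and dotted lines between count tables, each scaled on its own. *Dio1* stood out in liver and ileum, *Dio2* in iBAT and brain, *Thra* in neural tissue, and *Slc16a10* in liver and bone marrow. The 22 °C brain values of every gene in the cold experiment include the library with hepatocyte markers.

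The warm experiment's own controls gave the same leading tissues. *Dio1* was 259 ± 26.4 CPM in liver and 69.4 ± 9.57 in ileum. *Dio2* was 120 ± 61.3 CPM in iBAT, which overlapped brain at 47.3 ± 7.03, and 2.15 ± 0.713 in quadriceps (n = 6). *Thra* was highest in brain (349 ± 24), *Thrb* in liver (46.0 ± 5.66) and *Slc16a10* in liver (131 ± 28.6).

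Of the 6 genes, 5 were called in at least 1 comparison, the exception being *Dio3*. Over the 67 tests, 7 changes passed the adjusted threshold, 2 higher and 5 lower than at 22 °C. Over all genes, 4.03% of the 211781 tests were called in the 16 comparisons (1.92% higher and 2.11% lower). At the limits the study used, an unadjusted p of at most 0.05 and more than 1.5-fold, 11 changes of members were counted, against 5.05% of all tests. The called changes were in iBAT, ingSAT and bone marrow at 10 °C and in iBAT and liver at 34 °C. In the 11 other comparisons no member was called by edgeR's quasi-likelihood test, where 9 had an unadjusted p under 0.05, 3 were called by edgeR's exact test and 4 by DESeq2. In 7 of these no gene at all was called, with 369 to 2233 genes at an unadjusted p under 0.05, 0 to 469 called by the exact test and 0 to 530 by DESeq2.

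In ingSAT at 10 °C *Dio2* rose and *Thra* fell, while *Thrb* and *Slc16a10* did not pass the test. *Dio2* was 22, 25.2 and 16.8 CPM at 10 °C (259 to 405 counts) and 3.09, 3.0 and 0.903 CPM at 22 °C (15 to 45 counts). Every cold library was thus far above every control library. The log2 fold change was 3.26 (SE 0.44, adjusted p = 0.0110, edgeR quasi-likelihood test), or 9.58-fold (95% interval 4.66 to 19.7). Without the lowest cold library the adjusted p was 0.0588 at a log2 fold change of 3.41, so the call rests on 3 libraries a side. In this comparison 2 of the 4 tested members were called, against a background of 7.51% of all 13982 genes. Of the genes called, 61.3% were higher at 10 °C, and 49.8% with library size alone.

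*Thra* in the same libraries was 83.4, 53.4 and 65.9 CPM at 10 °C and 107, 109 and 105 CPM at 22 °C. The cold libraries were all lower, and they spread more than the controls. The log2 fold change was -0.63 (SE 0.14, adjusted p = 0.0450), and the call was lost in 5 of 6 fits that left out a library (adjusted p up to 0.242). *Nr1d1*, a clock repressor gene on the opposite strand, shares 263 exon bases with *Thra*, and it fell too, with a log2 fold change of -1.66 (adjusted p = 0.0273). The methods call only the TruSeq kit stranded, and the ingSAT libraries were made with the NEBNext kit. Whether the counting used strand is not given in the sources used here, and the part of shared reads in the *Thra* value was not tested. *Thrb* was lower in all 3 cold libraries (43.3, 33.4 and 43.4 against 49.7, 46.9 and 47.7 CPM), but the difference of -0.23 (SE 0.12) had an adjusted p of 0.275.

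Brown fat markers moved with *Dio2* in ingSAT. Their sum was 2107 to 2469 CPM at 10 °C and 141 to 196 CPM at 22 °C, with all 5 markers above 0 in every library, whereas general adipocyte markers overlapped (24071 to 32397 against 27533 to 32870 CPM). Of the 50 other genes of the thyroid hormone pathway that were listed by role, 40 were tested here, of which 4 rose and 1 fell. The risers were all among the T3-responsive genes. They were *Ucp1*, the uncoupling protein of brown fat (log2 fold change 7.35, SE 0.69, adjusted p = 0.00460), the mitochondrial shuttle enzyme *Gpd2* (1.67), *Thrsp*, a classical T3 target of fat synthesis (1.55), and *Ucp3* (0.95). *Slc7a8*, an amino acid transporter that also carries thyroid hormone, fell by 1.44. The median log2 fold change was 0.39 over the 14 responsive genes tested and -0.01 over all genes. The pathway list was chosen with earlier results of these data known, and *Ucp1* is also among the brown fat markers. The medians are thus a description only.

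In iBAT at 10 °C *Thrb* fell, and *Dio2*, despite the cold, was not higher than at 22 °C. *Thrb* was 67.7, 74.0 and 75.3 CPM at 10 °C and 113, 95.7 and 94.4 CPM at 22 °C, with no overlap. The log2 fold change was -0.51 (SE 0.12, adjusted p = 0.0288). With 1 of 4 tested members called, the background was 11.3% of 12791 genes, 55.1% of them higher, or 25.2% with library size alone. The call held in 1 of 6 fits that left out a library, with adjusted p-values from 0.0200 to 0.108 and differences from -0.57 to -0.40. Skeletal muscle markers were also lower at 10 °C, at 2725 to 5626 against 6900 to 9482 CPM, and hepatocyte markers were lower by the values given above. The part of either in the *Thrb* value was not tested.

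*Dio2* in iBAT was 158, 189 and 168 CPM at 10 °C and 201, 217 and 581 CPM at 22 °C. All cold libraries were below all controls, and 1 control stood far above the others. The log2 fold change was -0.97 (SE 0.35, adjusted p = 0.110), with a 95% interval from -1.76 to -0.17. edgeR's exact test, which the study used, called it lower (adjusted p = 0.0443), and DESeq2 did not (adjusted p = 0.186). Without that control it was -0.32 (adjusted p = 0.105). That control was also the highest of its group in brown adipocyte markers, at 15830 CPM against 10811 and 9691. The 3 cold libraries held 16413 to 20757 CPM of these markers. Within this sum *Ucp1* was 11079 to 15374 CPM in the cold and 4906 to 10108 CPM at 22 °C, with 10108 CPM in that control. *Cidea*, from the same marker list, overlapped (2718 to 2980 against 2417 to 3451 CPM).

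The other members and pathway genes in cold iBAT gave a mixed picture. *Thra* (122 ± 7.63 against 136 ± 12.6 CPM) and *Slc16a10* (55.6 ± 7.65 against 61.4 ± 15.6) overlapped between the temperatures. Of 40 pathway genes tested, 5 rose and 2 fell. Among the risers were the T3-responsive lipid synthesis genes *Me1* (2.09, adjusted p = 0.00517), *Fasn* (1.32, adjusted p = 0.0449) and *Thrsp* (1.23, adjusted p = 0.0163), while the log2 fold change of *Ucp1* was 0.86 (SE 0.29, adjusted p = 0.0850). The genes that fell were *Alb* (-7.47) and *Ttr* (-5.41), carriers of thyroid hormone in plasma that are made by hepatocytes. *Alb* is one of the hepatocyte markers and is at 39.1 to 76.5 CPM in the 22 °C libraries.

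At 34 °C *Dio2* fell in iBAT. It was 6.66, 26 and 4.48 CPM at 34 °C and 174, 133 and 53.4 CPM at 22 °C, so that the highest warm library was below the lowest control. *Dio2* fell by 3.28 on the log2 scale (SE 0.74, adjusted p = 0.0169), to 9.73-fold below 22 °C, with a 95% interval of the log2 fold change from -5.00 to -1.56. Without the first warm library the adjusted p was 0.0683. Together with *Slc16a10*, 2 of 4 tested members were called, against a background of 28.9% of 12331 genes. Of these, 46.6% were higher, but 86.1% with library size alone, a scaling that moved the median of all genes by 0.27. Each fold change below is therefore relative to TMM.

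*Slc16a10* in iBAT was 18.2, 23 and 19.3 CPM at 34 °C and 30.3, 28.6 and 33 CPM at 22 °C, with no overlap. It fell by 0.61 on the log2 scale (SE 0.11, adjusted p = 0.00865), and it was called in all 11 alternative fits, at -0.74 to -0.35. *Thra* was higher in all 3 warm libraries (97.7, 88.7 and 86.5 against 77.5, 62.3 and 77.2 CPM), with a difference of 0.32 (SE 0.11, adjusted p = 0.0691) that became 0.60 (adjusted p = 0.0128) with library size alone. *Thrb* overlapped, with a difference of 0.05 (95% interval -0.28 to 0.37).

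Of 36 pathway genes tested in warm iBAT, where 28.9% of all genes were called, 13 fell and 4 rose, with a median log2 fold change of -0.05 against 0.02 over all genes. Among them, 8 of the 13 T3-responsive genes tested fell and none rose, with a median of -1.11. As in ingSAT, the list was chosen with earlier results known, so these values are a description only. The largest falls were those of *Fasn*, the fatty acid synthase (-2.75), *Ucp1* (-2.26, SE 0.20, adjusted p = 0.00107), *Ucp3* (-2.20) and *Me1* (-2.10), and *Thrsp* fell by 1.14 (adjusted p = 0.00217). *Slc7a8* rose by 2.12 on this scale, having fallen in ingSAT in the cold. Brown adipocyte markers summed to 4633 to 5746 CPM at 34 °C and to 8436 to 11263 CPM at 22 °C, and general adipocyte markers overlapped. Within the brown adipocyte sum *Ucp1* was 975 to 1336 CPM at 34 °C and 4324 to 6460 CPM at 22 °C. *Cidea*, from the same marker list, overlapped (2177 to 2905 against 2641 to 2789 CPM). Muscle markers ranged from 706 to 2600 CPM at 34 °C and were 2.19, 3331 and 6.32 CPM at 22 °C. Their part was not tested. The study's design sheet gives the 3 controls of this comparison as single mice and the warm group as 2 single mice and 1 pool, whereas its methods text gives pools of 2 mice for every organ.

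**Figure D2:**
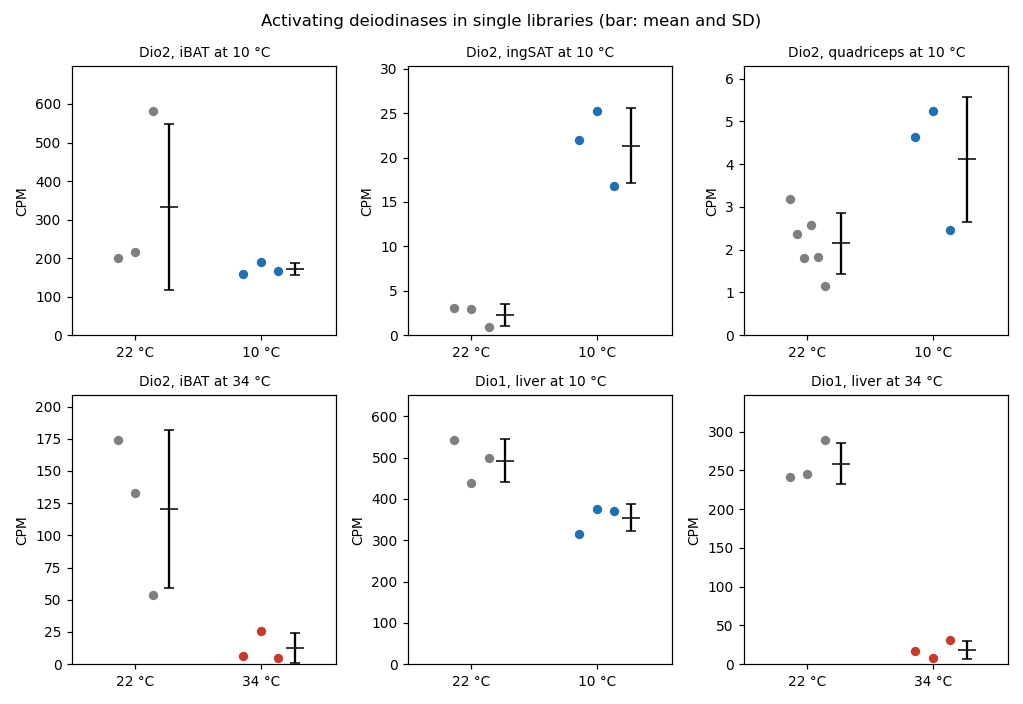
Levels of the deiodinase genes in single libraries (points, CPM) by housing temperature, with the mean and SD as a bar; each panel has its own axis starting at 0. *Dio2* was separated between temperatures in ingSAT at 10 °C (higher) and in iBAT at 10 °C and 34 °C (lower), and *Dio1* in liver at both 10 °C and 34 °C (lower). At 10 °C, *Dio2* in iBAT and *Dio1* in liver did not pass the adjusted threshold.

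In liver, *Dio1* was the member called, at 34 °C. At 34 °C it was 17.3, 7.45 and 30.8 CPM (230 to 788 counts) and at 22 °C 241, 246 and 289 CPM (6111 to 8038 counts). The lowest control was thus far above the highest warm library. *Dio1* fell by 3.82 on the log2 scale (SE 0.42, adjusted p = 0.0144), to 14.1-fold below 22 °C, with a 95% interval of the log2 fold change from -4.78 to -2.86. It was 1 of 4 tested members, and the background was 0.385% of 11179 genes. The call was lost without either of 2 controls (adjusted p = 0.0655 and 0.0555) or without the first warm library (0.0551), while the difference stayed between -4.39 and -3.44 in all such fits. Hepatocyte markers summed to 178688 to 193840 CPM at 34 °C and to 123703 to 143793 CPM at 22 °C. Of this sum *Alb* alone was 147461 to 159501 CPM at 34 °C and 92743 to 115077 CPM at 22 °C. The part of the hepatocyte share in the *Dio1* value was not tested.

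At 10 °C liver *Dio1* was 316, 376 and 371 CPM, against 542, 438 and 499 CPM at 22 °C. All cold libraries were lower, but with a log2 fold change of -0.50 (SE 0.10) the adjusted p was 0.0947, where 0% of 12026 genes was called. edgeR's exact test, which the study used, and DESeq2 did call it (adjusted p = 0.00323 and 6.11e-04). Hepatocyte markers were higher in the cold libraries (142118 to 149969 against 101313 to 111643 CPM). *Alb* alone was 119697 to 127052 CPM of this sum at 10 °C and 84434 to 92667 CPM at 22 °C. The part of the hepatocyte share was not tested. *Slc16a10* was likewise lower in all 3 cold libraries (250, 264 and 251 against 341, 286 and 293 CPM), with a difference of -0.29 (SE 0.083, adjusted p = 0.137). *Thra* and *Thrb* overlapped.

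*Dio3* in warm liver was too low to be tested but was not at 0. It had 20, 7 and 8 counts at 34 °C and 1, 1 and 0 counts at 22 °C. The ratio of the summed counts, corrected for library size, was 16.8 (exact conditional 95% interval 4.33 to 145, for counting error only). *Dio3os*, a non-coding RNA gene on the opposite strand that starts 895 bases from *Dio3*, rose in the same libraries to 8.85, 7.12 and 7.11 CPM from 1.01, 0.885 and 0.108 CPM (log2 fold change 3.52, SE 0.49, adjusted p = 0.0292). The exons of both genes do not overlap. None of the 35 pathway genes tested in warm liver was called by the quasi-likelihood test, and *Thrsp*, a T3 target also in liver, had a difference of 0.41 (SE 0.41, adjusted p = 0.772).

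The ileum values of *Slc16a10* and *Thra* in the cold were separated between temperatures without passing the test. *Slc16a10* was 116, 115 and 101 CPM at 10 °C and 76.0, 69.3 and 64.8 CPM at 22 °C, a log2 fold change of 0.67 (SE 0.087, adjusted p = 0.0603). *Thra* was 41.0, 47.8 and 37.6 CPM at 10 °C and 56.8, 64.9 and 58.9 CPM at 22 °C, a log2 fold change of -0.51 (SE 0.10, adjusted p = 0.0998). The background in ileum was 0.0639% of 14081 genes. The exact test called both (adjusted p = 1.67e-06 for *Slc16a10* and 0.00882 for *Thra*), as did DESeq2. *Nr1d1*, which overlaps *Thra*, was among the genes that fell (-2.06, adjusted p = 0.0488), and enterocyte markers were higher in the cold (12717 to 14570 against 7649 to 8751 CPM). These libraries were also made with the NEBNext kit. The part of enterocytes in either value, and of shared reads in the *Thra* value, was not tested. *Dio1* overlapped (68 ± 13 against 61.6 ± 21.2 CPM).

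At 34 °C no gene was called in ileum (0% of 13023). *Dio1* was lower in all 3 warm libraries (40.2, 57.8 and 26.4 against 61.0, 67.4 and 79.8 CPM), with a difference of -0.75 (SE 0.28, unadjusted p = 0.0308, adjusted p = 0.594). *Slc16a10* was 54.3, 210 and 137 CPM at 34 °C and 58.3, 78.1 and 83.4 at 22 °C, and the warm values spread on both sides of the controls.

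In bone marrow at 10 °C *Slc16a10* rose slightly. The lowest, median and highest cold library had 316, 337 and 373 CPM, against 229, 307 and 321 CPM at 22 °C, so the groups overlapped. The log2 fold change was 0.22 (SE 0.072, adjusted p = 0.0493), at the edge of the threshold, and the call was lost under 2 other filters on low counts (adjusted p = 0.0516 and 0.0555) and with the replicate number as a block (0.0725). It was also lost in 9 of 12 fits that left out a library, a check added after the data were seen, with adjusted p-values from 0.0358 to 0.109. Without the lowest control the difference was 0.15 (adjusted p = 0.0550). With 1 of 4 tested members called, the background was 19% of 12525 genes. Markers of neutrophil precursors were lower in the cold (17159 to 18451 against 18642 to 26696 CPM), and those of red cell precursors (1454 to 1808 against 1123 to 1436) and B cells (649 to 756 against 468 to 643) were higher. Their part was not tested. *Dio2* in bone marrow was 12.0 ± 1.42 against 13.7 ± 1.36 CPM (difference -0.20, SE 0.089, adjusted p = 0.141). Of 33 pathway genes tested, 2 rose and 2 fell. Among the transporters, the amino acid carrier subunits *Slc7a5* (0.25, adjusted p = 0.0407) and *Slc3a2* (0.23, adjusted p = 0.0223), which form 1 heterodimer, rose, and *Wsb1*, whose product marks DIO2 protein for degradation, fell by 0.20 (adjusted p = 0.0197). *Bcl3*, listed among the T3-responsive genes, fell by 0.45 (adjusted p = 0.0387).

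**Figure D3:**
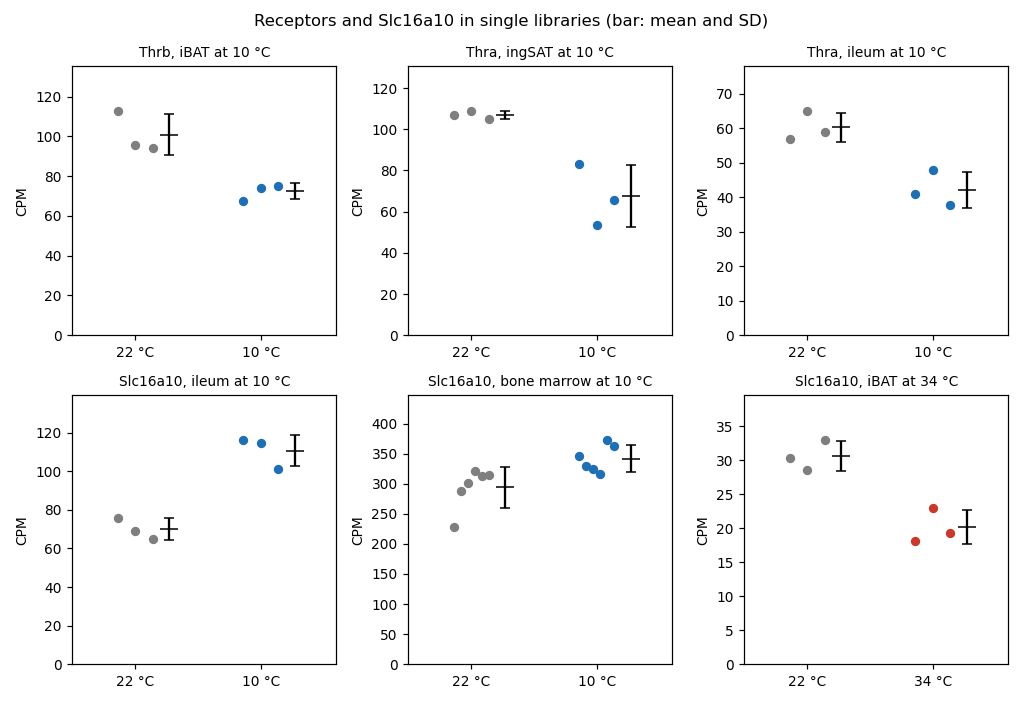
Levels of the receptor genes and *Slc16a10* in single libraries (points, CPM) for 6 pairs of gene and tissue, with the mean and SD as a bar and each axis starting at 0. The groups were separated in all panels except bone marrow, and *Thra* and *Slc16a10* in ileum did not pass the adjusted threshold.

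In pgVAT no gene was called at 10 °C (0% of 14856), and the libraries differed in epididymis markers. *Thra* was 39.2, 82.0 and 50.8 CPM at 10 °C and 90.6, 106 and 140 CPM at 22 °C, with a log2 fold change of -0.99 (SE 0.32, adjusted p = 0.593). *Slc16a10* was 113, 52.4 and 208 CPM against 54.6, 56.8 and 70.0 CPM (1.04, SE 0.49, adjusted p = 0.594). The cold library with the lowest *Slc16a10* and the highest *Thra* was the one with 2.28 CPM of epididymis markers. Without it 1317 of 15007 genes were called, and *Thra* (-1.31, adjusted p = 0.0410), *Thrb* (-1.17, adjusted p = 0.0343) and *Slc16a10* (1.42, adjusted p = 0.0365) were among them, in a comparison of libraries with 13125 and 15940 CPM of epididymis markers against 468 to 2463. The part of epididymis in these values was not tested. *Dio2* in pgVAT overlapped, at 5.74, 8.99 and 2.01 against 1.09, 2.90 and 5.29 CPM, and the highest control was the library with brown adipocyte markers.

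Neural tissues showed no called change in any member. In hypothalamus, where the axis is set, *Dio2* was slightly higher in all 3 cold libraries (14.3, 12.4 and 14.3 against 12.2, 12.2 and 11.1 CPM), with a difference of 0.22 (SE 0.095, unadjusted p = 0.0370, adjusted p = 0.799) where 0% of 14526 genes was called. *Thrb* there differed by 0.08 (95% interval -0.05 to 0.22) and *Thra* by -0.05 (-0.15 to 0.05). In brain at 10 °C (0% of 14423 genes), the library with hepatocyte markers set the values: *Dio1* differed by -8.64 (SE 3.37, adjusted p = 0.707) and *Slc16a10* by -2.87 (SE 1.31, adjusted p = 0.707). Without that library *Slc16a10* differed by 0.00 (95% interval -0.32 to 0.33), *Dio2* by -0.15 (-0.39 to 0.09), *Thra* by -0.03 (-0.19 to 0.13) and *Thrb* by 0.09 (-0.07 to 0.25), and *Dio1* was too low to be tested. In brain at 34 °C (0% of 13978), *Dio2* differed by -0.03 (-0.25 to 0.20), and in spinal cord at 10 °C (0.00695% of 14382), it differed by 0.07 (-0.16 to 0.30). Spleen (0.0779% of 14117) had no called member, and its *Slc16a10*, at 72.6, 103 and 109 against 96.8, 128 and 146 CPM, overlapped.

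In quadriceps at 10 °C *Dio2* was 4.62, 5.24 and 2.47 CPM, and the 6 controls had a lowest, median and highest value of 1.15, 2.10 and 3.19 CPM. A pair of the cold libraries was above all controls, and the log2 fold change was 0.95 (SE 0.32, unadjusted p = 0.0132, adjusted p = 0.277), with 0.338% of 11836 genes called. Against the 3 controls of its own set alone it was 0.79 (unadjusted p = 0.0595, adjusted p = 0.468). *Ucp1*, which skeletal muscle fibres lack, was 152, 117 and 36.2 CPM in the cold libraries and at most 8.65 CPM in the controls, and the library lowest in *Ucp1* among the cold ones was also the lowest in *Dio2*. *Cidea*, also a brown adipocyte marker, was 59.5, 44.4 and 15.9 CPM in the cold libraries and at most 19.2 CPM in the controls. Summed over all 5 brown adipocyte markers the groups overlapped (696 to 920 CPM at 10 °C against 665 to 913 CPM at 22 °C). The control with 913 CPM held 0.0613 CPM of *Ucp1* and 2.12 CPM of *Cidea*, so *Cox7a1*, *Cox8b* and *Ppargc1a* made up its sum. In quadriceps the sum thus did not follow *Ucp1* and *Cidea*, and it is no measure of the brown adipocyte share there. General adipocyte markers overlapped too (525 to 1383 against 347 to 921 CPM), and no marker was at 0 in any library. The part of brown or general adipocytes in the *Dio2* value was not tested. Of 38 pathway genes tested, *Fasn* (2.47) and *Thrsp* (2.19, adjusted p = 0.0237) rose. *Thrb* (29.5 ± 2.33 against 25.6 ± 4.14 CPM), *Thra* (73.6 ± 4.36 against 84.2 ± 8.26) and *Slc16a10* (71.1 ± 8.58 against 69.6 ± 10.2) overlapped. At 34 °C, with the same 6 controls, no gene was called (0% of 11725) and *Dio2* was 1.81 ± 0.462 CPM, a difference of -0.24 (95% interval -0.93 to 0.45).

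**Figure D4:**
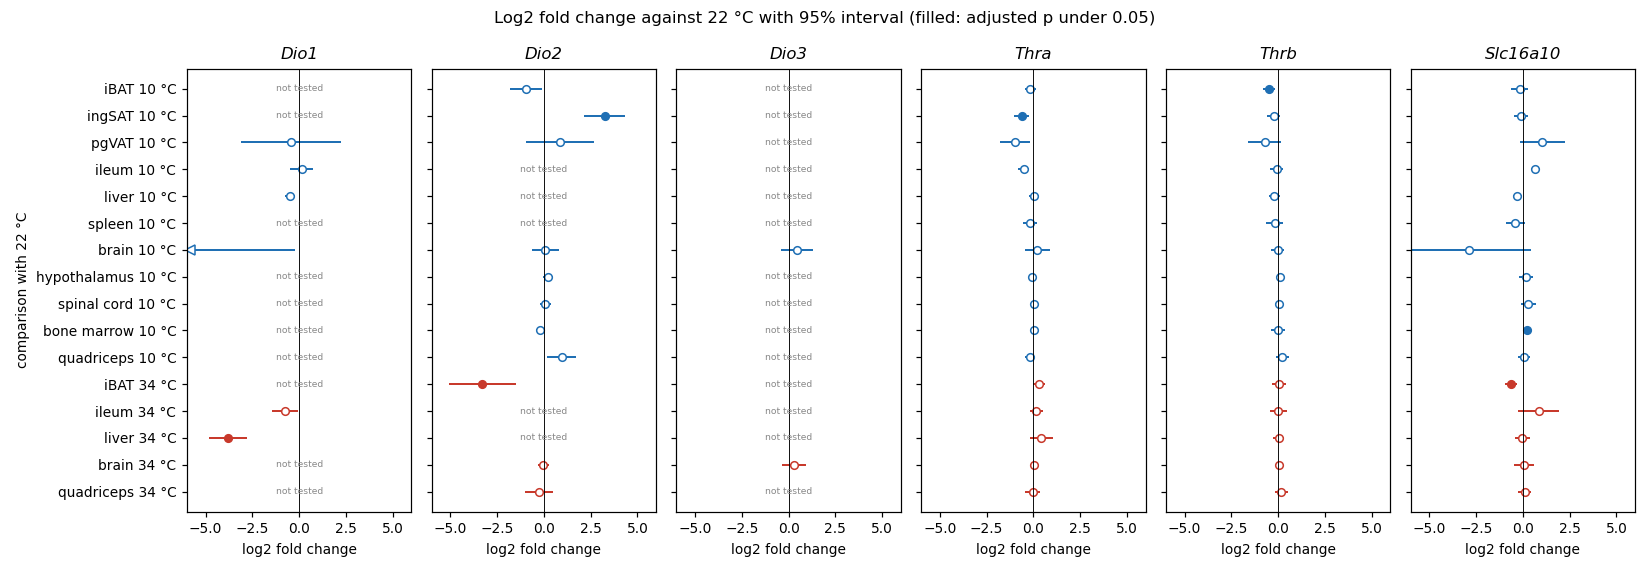
Log2 fold change of each member that could be tested, against 22 °C in the same tissue, with its 95% interval from the edgeR quasi-likelihood fit; filled points passed the adjusted threshold. Intervals are cut at -6 and 6, where an arrow stands for *Dio1* in brain at 10 °C (-8.64). *Dio2* in ingSAT lay far above 0, and *Dio2* in warm iBAT and *Dio1* in warm liver far below.

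Whether tissues responded differently was tested as the difference between each tissue's change and that of iBAT, within a table. In the cold, 2 of 25 such differences were called. That of *Dio2* in ingSAT less iBAT was 4.27 (SE 0.62, adjusted p = 0.00484), where 3.55% of genes were called, so the cold change of *Dio2* differed between these fat depots. That of *Thrb* in hypothalamus less iBAT was 0.56 (SE 0.13, adjusted p = 0.0168, background 9.87%). *Slc16a10* in ileum less iBAT was 0.83 (SE 0.22, adjusted p = 0.0524, background 4.92%), and with library size alone 0.93 (adjusted p = 0.0161). In pgVAT (0.0835% of genes), liver (8.52%), spleen (6.79%) and brain (0.739%), no member differed from iBAT at the threshold of this test. The brain fit kept the library with hepatocyte markers, and *Slc16a10* there was -2.67 with an SE of 1.32. The pgVAT fit kept the libraries with unequal epididymis markers. In these tissues the lack of a call therefore does not show an equal change. The iBAT change entered every difference, so these are not independent of one another.

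At 34 °C, 4 of 14 differences from iBAT were called. *Dio2* in brain less iBAT was 3.27 (SE 0.78, adjusted p = 0.0136, background 20.7%) and in quadriceps less iBAT 3.06 (SE 0.77, adjusted p = 0.0215, background 10.9%). The corresponding differences of *Slc16a10* were 0.70 (SE 0.23, adjusted p = 0.0499) and 0.71 (SE 0.20, adjusted p = 0.0320), and these were lost with library size alone (0.40, adjusted p = 0.194, and 0.47, adjusted p = 0.163). In ileum (background 13.8%) and liver (9.1%) no member's difference from iBAT passed the threshold, that of *Slc16a10* in ileum being 1.5 (SE 0.51, adjusted p = 0.0723).

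For each member but *Dio3*, the 3 genes of the most similar level pattern over the 16 group means of the 8-tissue table were named, by Pearson's r of log2 CPM among 17244 genes. These means share libraries, depth and tissue make-up, so r is a description. For *Dio1* they were *A1cf*, *Acnat1* and *Apol7a* (r = 0.990 each) and for *Dio2* *Ldhb*, *Trappc2l* and *Tesk1* (0.967, 0.965 and 0.964). For *Thra* they were *Clip4*, *Hrasls* and *Kctd3* (0.985, 0.980 and 0.974), for *Thrb* *AI464131*, *Dgcr6* and *Mzt2* (0.962, 0.957 and 0.956) and for *Slc16a10* *Nedd1*, *Vamp8* and *Serp1* (0.980, 0.974 and 0.969). All these patterns include the brain library with hepatocyte markers.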

How the data were processed

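RNA of 11 tissues was sequenced. TruSeq stranded kits were used for bone marrow, spinal cord and all warm samples. The 8 tissues of the main cold table had NEBNext kits. The methods do not name cold quadriceps among the TruSeq samples and give NEBNext for the remaining tissues. The quadriceps controls of both sets may therefore differ in kit. The authors aligned reads to mm10 with STAR and counted reads per gene with HTSeq, and deposited raw counts (whole numbers, not scaled). The submitters' notes name STAR 2.5.3a, Picard 1.141 and HTSeq 0.6p1, while the methods name later versions. In the 8-tissue table, Ensembl identifiers were mapped to symbols (21583 of 21647 rows).

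Here counts were fitted per comparison with edgeR 4.0.16 (TMM, quasi-likelihood F-test, average log2 CPM above 0, R 4.3.3), and p-values were adjusted over all genes by the Benjamini-Hochberg method. For quadriceps all 6 libraries at 22 °C entered both comparisons, which therefore share controls. The script steps were tested on simulated data. No pair of the 1869 library pairs compared held identical counts. The members, the pathway list and the marker lists were chosen with earlier results of these data known. Of the pathway genes, up to 5 called per comparison were named by size of change, plus *Ucp1* and *Thrsp* where *Dio1* or *Dio2* was called. *Wsb1* and the neighbours *Nr1d1* and *Dio3os* were named in addition. Alternatives were edgeR's exact test, DESeq2 1.42.0, library size scaling, 2 other filters, a replicate block and leaving out each library. RefSeq protein sequences and a *Thra* promoter were not used here. The genes most like *Dio3* in level pattern are not reported here. Gene positions and exon lengths are from GENCODE M21 on GRCm38.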

Additional observations from a re-analysis of the deposited data

Results flagged for a closer look

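In the 5 groups of 5 or 6 libraries, a library's gap to its nearest neighbour, as a share of the group's range, was checked against Dixon's 95% value for 4 members each. Of these 20 checks, which share libraries within a group, 5 were above it, where chance flags about 1 in 20. For *Thra* (0.884) and *Thrb* (0.771) this was the same spinal cord library at 10 °C, which had 326 CPM of *Thra* against at most 248.7 in the others and 24.4 CPM of *Thrb* against 29.4 to 30.9. A 22 °C spinal cord library was high in *Slc16a10* (0.768), at 3.13 CPM against 1.93 to 2.21. It also held 266 CPM of *Alb*, against at most 0.415 in the other 4 controls. A 22 °C bone marrow library was low in *Slc16a10* (0.651), at 229 against 289 to 321 CPM, and a 22 °C quadriceps library was low in *Thrb* (0.636), at 17.9 against 25.1 to 29.1 CPM.

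Changes that differed from those of iBAT by a test of the difference itself were those of *Dio2* in ingSAT (4.27) and *Thrb* in hypothalamus (0.56) in the cold, and of *Dio2* in brain (3.27) and quadriceps (3.06) and *Slc16a10* in brain (0.70) and quadriceps (0.71) at 34 °C, all on the log2 scale.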

How the results depend on the processing

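Of 839 values of the members under the alternatives listed at the start, none changed sign while called, and 40 changed sign uncalled. These do not include the 12 bone marrow refits without a library, where *Thra* (-0.01 to 0.03) and *Thrb* (-0.07 to 0.05) lay on both sides of 0 and were not called. The counts of called members moved as follows. By edgeR's exact test they were 2 in iBAT at 10 °C (*Dio2* added, from 1), 2 in ileum at 10 °C and 1 in liver at 10 °C (from 0 each). With DESeq2 they were 2 in ileum and 2 in liver at 10 °C, and 3 in iBAT at 34 °C (from 2, *Thra* added), as with library size alone. With the lowest filter the count was 1 in ingSAT (from 2), 1 in ileum at 10 °C and 0 in bone marrow, and with edgeR's filterByExpr it was 0 in bone marrow (from 1). With the replicate number as a block it was 1 in ingSAT (*Thra* lost), 1 in ileum at 10 °C (*Slc16a10* added, adjusted p = 0.0256) and 0 in bone marrow. The block changed no other call, and the numbers were not shown to pair the libraries, since in no tissue did every pair of the same number correlate above 0.1 (in bone marrow, 1 of 6 libraries correlated best with its own number). Leaving out each library in turn gave 0 to 1 called members in bone marrow (12 refits, added after the data were seen). In the 15 other comparisons (100 refits) it gave 0 to 1 called members in iBAT at 10 °C, 0 to 2 in ingSAT, 0 to 3 in pgVAT, 0 to 1 in liver at 10 °C, 1 to 2 in iBAT at 34 °C and 0 to 1 in liver at 34 °C. With library size alone, 5 of 6 members kept their highest tissue at 22 °C, *Thrb* being the exception. That scaling moved the median log2 fold change of all genes by -0.16 in iBAT at 10 °C, 0.12 in brain at 10 °C, 0.15 in quadriceps at 10 °C and 0.27 in iBAT at 34 °C, and of the genes called in quadriceps at 10 °C 97.6% were then higher, against 82.5%. Levels under 1 CPM rest on few reads, and most comparisons have 3 libraries a side.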
